A study of Mus musculus with 20 samples.

Results

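DOT1L-deficient CD4+ T cells cultured under Th1 conditions (KO Th1, n = 2 libraries) were compared with DOT1L-deficient cells cultured under Th2 conditions (KO Th2, n = 2 libraries). These 4 of the 20 RNA-seq libraries of the series were chosen by their sample labels, and the comparison ran over 13072 tested genes of 22048 protein-coding genes. The question was which differences between the polarisations remain without DOT1L. KO cells came from CD4Cre+DOT1L FL/FL mice, which carry loxP-flanked Dot1l alleles and a Cre recombinase driven by the CD4 gene, and WT cells from mice with the Cre alone. Cre was thus present in every group, and CD4-driven Cre also acts in the thymus, before CD4 and CD8 cells separate. Cells of spleen and peripheral lymph nodes were cultured for 4 days with 10 ng/ml IL-2 in wells coated with antibodies to CD3 and to CD28, each at 1 µg/ml. Th1 cultures also received 10 ng/ml IL-12 and 10 µg/ml anti-IL-4, and Th2 cultures 10 ng/ml IL-4 and 10 µg/ml anti-IFN-γ, before viable CD4+ cells were sorted. The same contrast in WT cultures without compound (WT Th1 and WT Th2, n = 2 each) was set beside the KO contrast, and WT cultures with 1 µM SGC0649, the control compound of a DOT1L inhibitor (n = 2 each), served to choose polarisation genes from other libraries. The labels give no animal age and do not say whether replicates came from separate mice, so p-values measure the spread between libraries, which may be technical.

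T helper 1 cells are induced by IL-12 through STAT4 and by IFN-γ, are directed by the transcription factor T-bet (Tbx21) and secrete IFN-γ. T helper 2 cells are induced by IL-4 through STAT6, are directed by GATA3 and secrete IL-4, IL-5 and IL-13. DOT1L is the methyltransferase of lysine 79 of histone H3, a mark found over transcribed gene bodies.

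KO Th1 and KO Th2 libraries held 10558937 to 13025588 counts in protein-coding genes, against 9704500 to 13025588 over all 20 libraries. Between 53.3% and 56.3% of alignments in the 4 KO libraries were assigned to a gene. The standard deviation of the log2 difference between replicates was 0.201 in KO Th1 and 0.331 in KO Th2, against 0.146 in WT Th1 and 0.200 in WT Th2, over 9648 genes with an average log2 CPM (read counts scaled to a common library size) of at least 3. The KO Th2 replicates were thus further apart than those of the other 3 groups. The targeted gene, Dot1l (ENSMUSG00000061589), had 131 and 146 CPM in KO Th1, against 113 and 92.5 CPM in KO Th2. WT levels of Dot1l were 176 and 186 CPM in Th1, against 148 and 164 CPM in Th2. Each KO library lay below the WT libraries of its condition, but reads were counted over the whole gene, so these values do not check the deletion of the floxed part. Within KO, Dot1l was higher in Th1 (log2 fold change 0.43 ± 0.11 SE, adjusted p = 0.00376), and that call was lost without KO Th1 replicate 2 (0.33, adjusted p = 0.0675) and without KO Th2 replicate 2 (0.30, adjusted p = 0.0604).

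The defining genes of the 2 lineages separated the KO cultures as the labels name them. Ifng (ENSMUSG00000055170, chr10:118441047-118445892 on GRCm38, + strand), the Th1 effector cytokine, had 2559 and 1658 CPM in KO Th1, against 46.9 and 80.2 CPM in KO Th2. For Ifng, WT Th1 had 727 and 700.1 CPM, against 20.8 and 26.9 CPM in WT Th2. Its log2 fold change was 5.06 ± 0.30 in KO (SE, adjusted p = 6.69e-09) and 4.91 ± 0.30 in WT, and the difference between these 2 polarisation effects, called the interaction here, was 0.15 ± 0.38 (adjusted p = 0.782). Tbx21 (ENSMUSG00000001444, chr11:97098071-97115331), which encodes T-bet, had 200.002 and 201 CPM in KO Th1, against 32.8 and 47.7 CPM in KO Th2. WT cultures held Tbx21 at 287 and 272 CPM in Th1, against 19.98 and 16.6 CPM in Th2. The Th1 excess of Tbx21 was smaller in KO (log2 fold change 2.32 ± 0.14) than in WT (3.93 ± 0.15; interaction -1.61 ± 0.20, adjusted p = 9.29e-06), with lower Th1 and higher Th2 levels in KO than in WT.

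Among the Th2 genes, the 2 signature cytokines did not share 1 pattern. Il4 (ENSMUSG00000000869, chr11:53602982-53618669, - strand) had 3.48 and 2.42 CPM in KO Th1, against 12.3 and 7.01 CPM in KO Th2. In WT, Il4 had 4.59 and 4.14 CPM in Th1, against 72.5 and 74.9 CPM in Th2. It still fell in Th1 relative to Th2 in KO (-1.73 ± 0.37, adjusted p = 0.000872), but by less than in WT (-4.08 ± 0.31; interaction 2.35 ± 0.50, adjusted p = 0.00153). Il13 (ENSMUSG00000020383, chr11:53631324-53634702, - strand), the cytokine of mucus production and airway responses, had 10.1 and 7.65 CPM in KO Th1, against 98.4 and 55.9 CPM in KO Th2. WT levels of Il13 were 40.6 and 39.1 CPM in Th1, against 372 and 384 CPM in Th2. Both KO conditions held less Il13 than the WT libraries of their condition, while the difference between conditions was -3.12 ± 0.31 in KO (adjusted p = 1.09e-06) and -3.25 ± 0.27 in WT (interaction 0.13 ± 0.41, adjusted p = 0.834). Gata3 (ENSMUSG00000015619, chr2:9857078-9890034) had 11.3 and 11.8 CPM in KO Th1, against 229 and 169 CPM in KO Th2. For Gata3, WT Th1 had 35.3 and 39.5 CPM, against 343 and 299 CPM in WT Th2, and its difference was larger in KO (-4.11 ± 0.16) than in WT (-3.10 ± 0.15; interaction -1.01 ± 0.21, adjusted p = 0.000972). No library of one condition overlapped the other for Ifng, Tbx21, Il4, Il13 or Gata3 in either genotype. In bulk RNA, fewer cells that express a gene and less RNA per cell cannot be told apart.

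**Figure D1:**
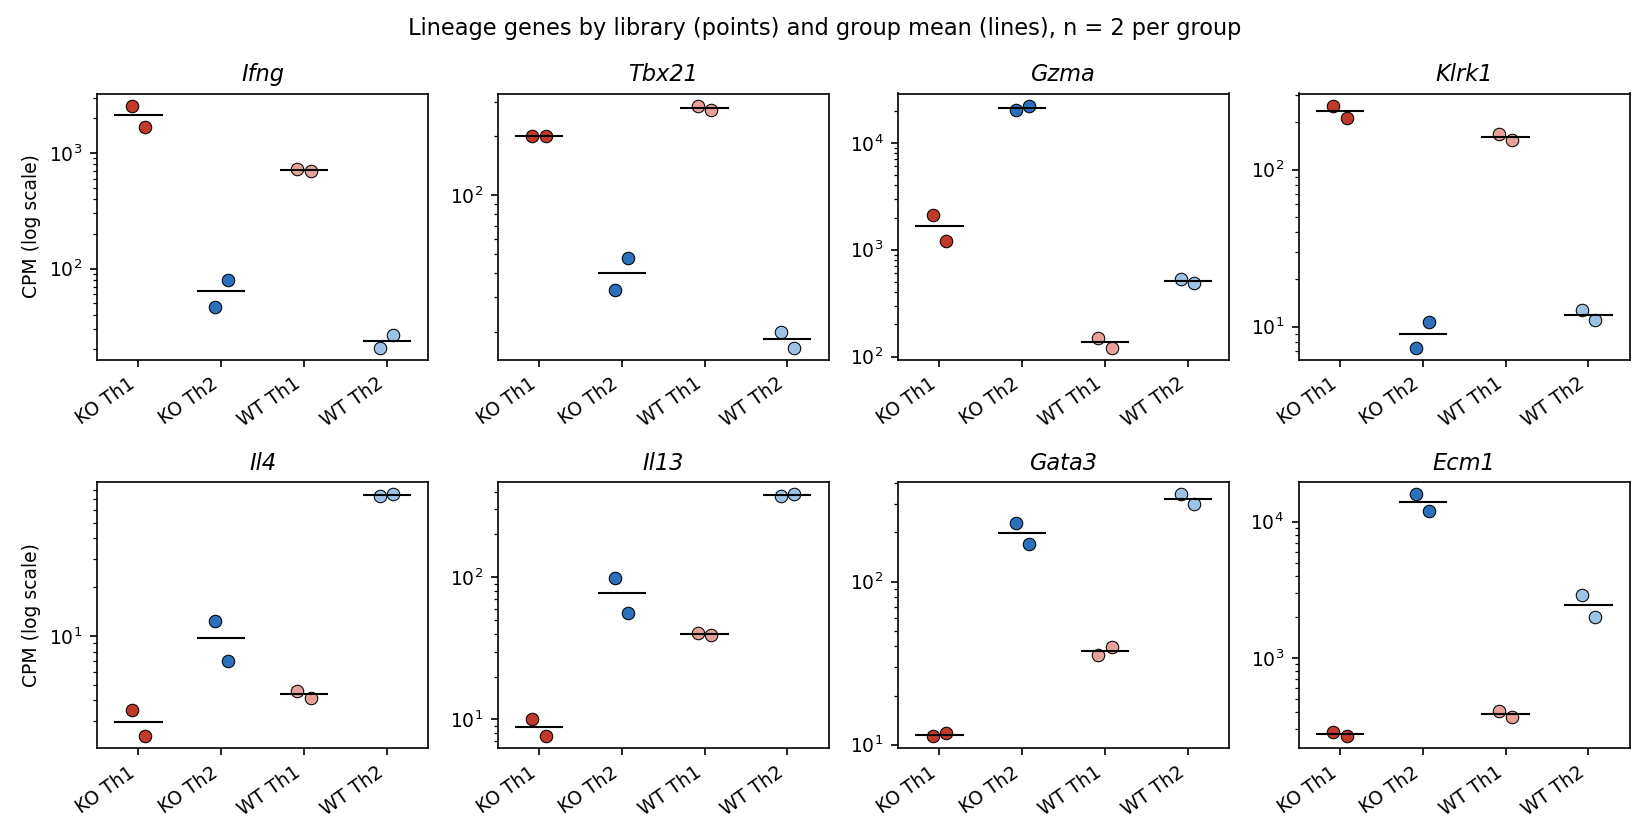
CPM on log axes, 1 panel per gene, for KO Th1, KO Th2, WT Th1 and WT Th2; points are the 2 libraries of each group and lines the group means. Ifng and Klrk1 stood higher in Th1 and Il4, Il13, Gata3 and Ecm1 lower in Th1 in both genotypes; for Il4 the KO Th2 libraries held 12.3 and 7.01 CPM, against 72.5 and 74.9 CPM in WT Th2.

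The promoters of Ifng, Il4 and Il13, the 3 cytokine genes on which the comparison of retained and reduced polarisation turns, are shown from 250 bases before to 50 bases after the start site (RefSeq, GRCm38.p6), 5′ to 3′ on the gene's strand. Capitals mark matches to TTCNNNGAA, to TTC and GAA with 4 bases between them, or to GATAA, letters found in STAT and GATA sites, searched on both strands; Il4 has 2 starts in the table and the one nearest the counted gene's start is shown.
Ifng at chr10:118440796-118441095: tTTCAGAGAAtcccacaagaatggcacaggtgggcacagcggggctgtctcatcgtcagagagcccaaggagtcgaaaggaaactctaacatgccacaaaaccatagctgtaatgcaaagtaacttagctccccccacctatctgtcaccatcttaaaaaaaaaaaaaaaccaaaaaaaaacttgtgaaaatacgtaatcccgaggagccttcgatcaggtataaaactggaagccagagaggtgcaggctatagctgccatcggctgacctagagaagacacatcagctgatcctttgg
Il4 at chr11:53618616-53618915: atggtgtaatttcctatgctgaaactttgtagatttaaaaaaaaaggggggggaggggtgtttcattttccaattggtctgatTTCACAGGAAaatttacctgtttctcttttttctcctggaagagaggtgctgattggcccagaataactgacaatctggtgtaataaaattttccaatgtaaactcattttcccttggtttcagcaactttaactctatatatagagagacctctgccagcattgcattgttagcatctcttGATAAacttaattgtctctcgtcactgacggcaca
Il13 at chr11:53634653-53634952: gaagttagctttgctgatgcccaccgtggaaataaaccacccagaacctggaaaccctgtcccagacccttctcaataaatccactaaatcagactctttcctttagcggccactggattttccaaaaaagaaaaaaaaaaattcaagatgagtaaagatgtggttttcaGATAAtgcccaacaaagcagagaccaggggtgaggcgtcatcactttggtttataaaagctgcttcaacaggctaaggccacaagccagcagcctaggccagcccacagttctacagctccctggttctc
Ifng held 1 match to TTCNNNGAA, Il4 held 1 to the form with 4 bases between and 1 to GATAA, and Il13 held 1 to GATAA. Among 32851 promoters of this length, 8.30% held TTCNNNGAA, 6.95% the form with 4 bases between and 25.4% GATAA, so matches of these kinds are common, and each is a description of letters and not of a bound site.

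Across all genes, polarisation separated the cultures of both genotypes. At an adjusted p under 0.05, 7821 genes (59.8% of 13072) were called between KO Th1 and KO Th2, of which 3670 (28.1%) were higher and 4151 (31.8%) lower in KO Th1. Between WT Th1 and WT Th2, 6973 genes (53.3%) were called, 3402 (26.0%) higher and 3571 (27.3%) lower in WT Th1. At a fold of 2 or more, the counts were 1540 higher (11.8%) and 1677 lower (12.8%) in KO Th1, against 1073 higher (8.21%) and 1600 lower (12.2%) in WT Th1. The median log2 fold change over all genes was -0.025 in KO and 0 in WT, and the median size was 0.53 in KO and 0.46 in WT. The interaction was called for 6045 genes (46.2%), 2870 with a more positive difference in KO (22.0%) and 3175 with a more negative one (24.3%). Which genotype had more calls changed with the fit: with only the libraries of each contrast, 6866 genes were called in KO and 7745 in WT. With KO Th1 replicate 1, KO Th1 replicate 2 or KO Th2 replicate 1 left out, 6746, 6778 and 6726 genes were called in KO, against 6954, 6960 and 7189 in WT.

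The KO and WT contrasts share no library, so the calls of one could be counted among those of the other; they share the fit's estimate of spread. Of the 6973 genes called in WT, 3508 (50.3%) were called in the same direction in KO, 1100 (15.8%) in the opposite direction and 2365 (33.9%) were not called in KO. These 3508 genes were 44.9% of the KO calls. Of the 3508, 2238 had no called interaction, 542 had a smaller and 728 a larger difference in KO. Among the 2365 not called in KO, the interaction itself was called for 1532. Polarisation genes of WT that were higher in Th1 were called the same way in KO in 1545 of 3402 cases (45.4%), and those higher in Th2 in 1963 of 3571 (55.0%). Over all 13072 tested genes, 59.8% were called in KO, 28.1% higher and 31.8% lower in Th1, and the shares above are to be read against these. In the other direction, 1540 genes were higher in KO Th1 by at least 2-fold, and of these 686 (44.5%) were called the same way in WT, 142 the opposite way and 712 were not called in WT, 498 of them with a called interaction. Of the 1677 genes lower in KO Th1 by at least 2-fold, 1038 (61.9%) were called the same way in WT. Over all tested genes, 26.0% were called higher and 27.3% lower in WT Th1.

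**Figure D2:**
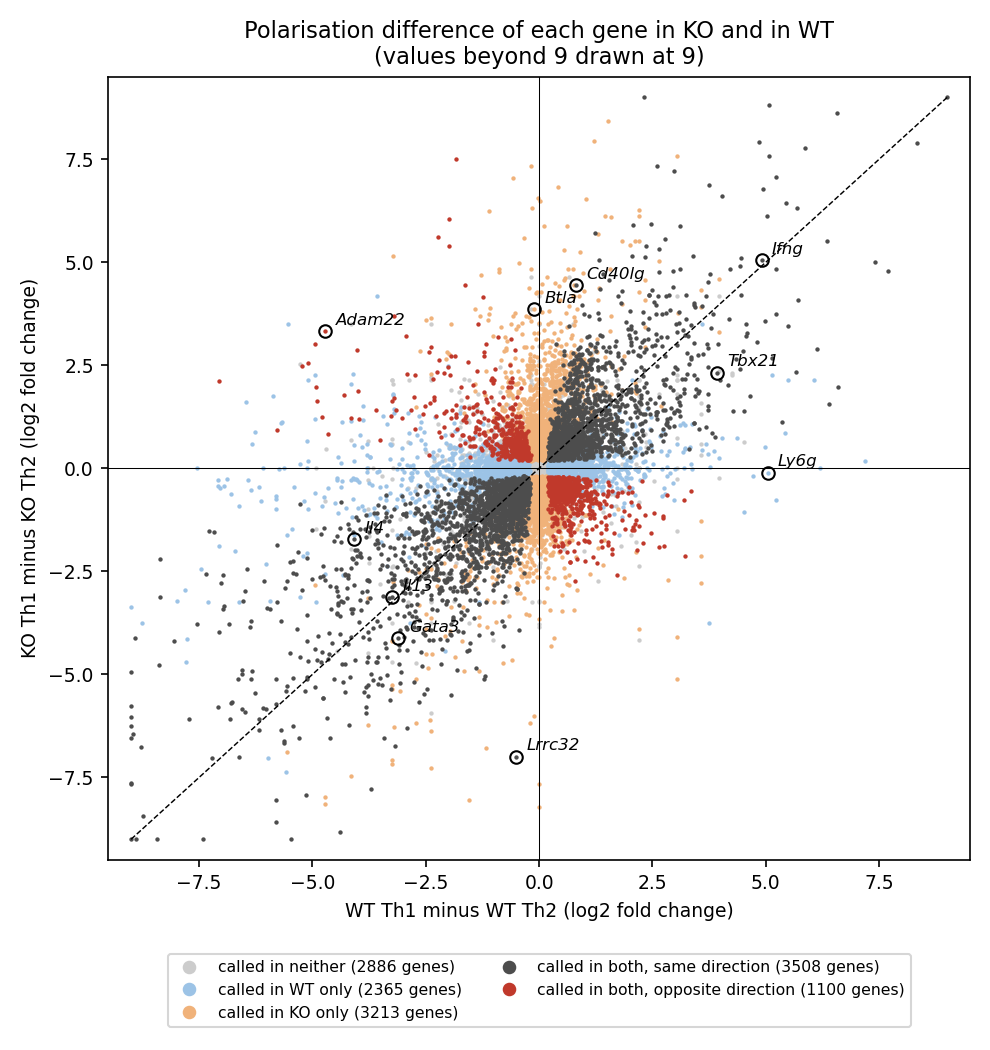
Log2 fold change of each of the 13072 tested genes between WT Th1 and WT Th2 (x axis) and between KO Th1 and KO Th2 (y axis), coloured by where the gene was called; the dashed line marks equal differences and values beyond 9 are drawn at 9. Of the genes called in both, 3508 lie in the quadrants of the same direction and 1100 in those of the opposite direction; named genes are circled.

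Genes chosen by the WT contrast favour WT, so a list was also taken from WT cultures with SGC0649, which enter neither contrast. There 1008 genes (7.71%) were higher in Th1 and 1308 (10.0%) higher in Th2, by at least 2-fold. Of these 2316 genes (17.7% of those tested), 1273 (55.0%) were called in the same direction in KO, against 2102 (90.8%) in WT. In the opposite direction, 294 (12.7%) were called in KO. Among all tested genes, the shares called higher and lower in Th1 were 28.1% and 31.8% in KO, and 26.0% and 27.3% in WT. For the Th1-high genes, the median log2 fold change was 0.60 in KO and 1.55 in WT. For the Th2-high genes, it was -0.96 in KO and -2.04 in WT. Without KO Th2 replicate 2 the Th1-high median in KO was 0.73, and without KO Th2 replicate 1 the Th2-high median in KO was -0.80. This list also comes from WT cells and so still favours WT. The replicate differences of the SGC0649 cultures correlated with those of the WT cultures over genes (0.235 for Th1 and 0.422 for Th2), and whether they share animals is not stated. Chosen from KO instead, by at least 2-fold, 44.5% of the Th1-high and 61.9% of the Th2-high genes were called the same way in WT, as given above.

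**Figure D3:**
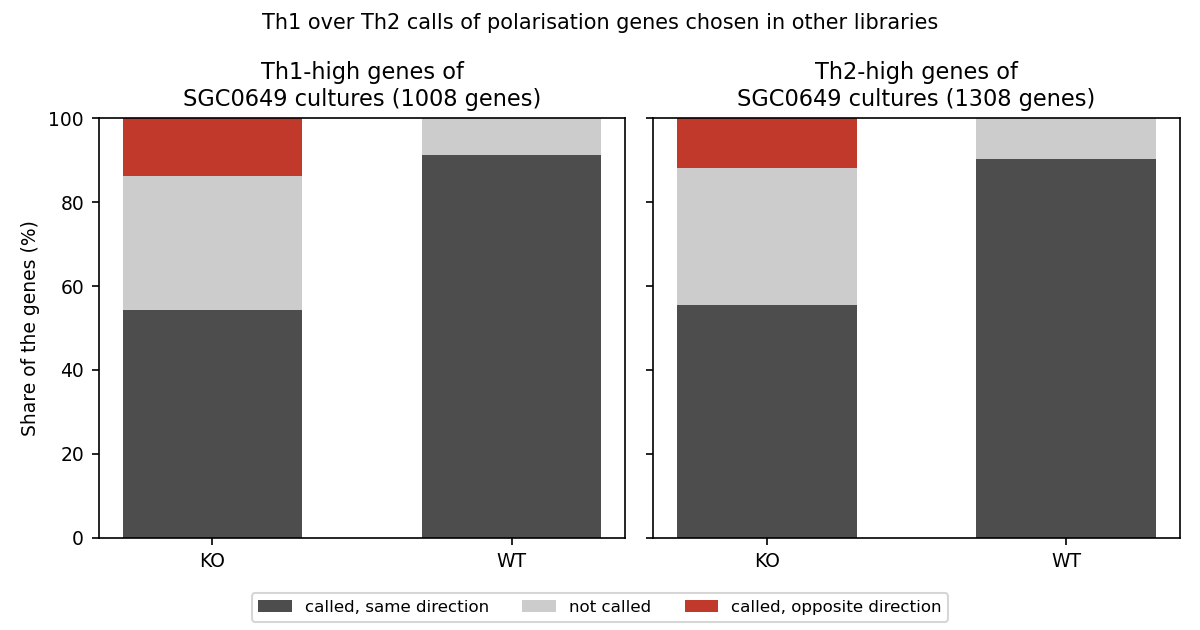
Share (%) of the Th1-high (left, 1008 genes) and Th2-high genes (right, 1308 genes) of SGC0649 cultures that were called in the same direction, not called or called in the opposite direction, in KO and in WT. In KO, 54.4% of the Th1-high and 55.4% of the Th2-high genes were called in the same direction, against 91.3% and 90.4% in WT. Among all tested genes, the shares called higher and lower in Th1 were 28.1% and 31.8% in KO, and 26.0% and 27.3% in WT.

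The list of Th1 cytokine and transcription factors showed a smaller polarisation difference in KO. Of 12 tested genes, 7 were higher and 3 lower in KO Th1 (median log2 fold change 0.64), against 10 higher and 0 lower in WT Th1 (median 2.37). The interaction was called for 1 of them with a more positive and 9 with a more negative difference in KO. Hopx, a homeodomain cofactor expressed in Th1 effectors, had 289.7 and 234 CPM in KO Th1, against 73.2 and 110.2 CPM in KO Th2 (log2 fold change 1.52 ± 0.16, adjusted p = 6.7e-07). WT cultures held Hopx at 384 and 339 CPM in Th1, against 26.7 and 27.7 CPM in Th2 (3.73). The gap in Hopx was narrower in KO, where both Th2 libraries stood above those of WT (interaction -2.21, adjusted p = 1.86e-06). Eomes, the T-box factor of cytotoxic lymphocytes, was lower in KO Th1 with 10.4 and 9.34 CPM, against 32.7 and 55.0 CPM in KO Th2 (-2.15 ± 0.25, adjusted p = 2.31e-06), but higher in WT Th1 with 18.8 and 25.7 CPM, against 8.12 and 11.4 CPM in WT Th2 (1.20; interaction -3.34, adjusted p = 2.84e-06). Runx3, a partner of T-bet that silences Cd4 in CD8 cells, had 219.9 and 248 CPM in KO Th1, against 592 and 497 CPM in KO Th2 (-1.22, adjusted p = 1.34e-07). In WT, Runx3 had 341 and 333 CPM in Th1, against 369 and 409.8 CPM in Th2, where it was not called. Twist1, a factor that limits Th1 inflammation, had 0.697 and 1.53 CPM in KO Th1 and 0 counts in KO Th2, at least 7.62-fold higher with a floor of 3 counts over the group.

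Th1 receptors, ligands and surface genes were higher in KO Th1 in 12 of 21 cases and lower in 4 (median 0.96), against 18 higher and 3 lower in WT Th1 (median 2.27), and 14 of the 21 had a called interaction toward a more negative difference in KO. The chemokines Ccl3, Ccl4 and Xcl1 were Th1-high in both genotypes. Ccl3, an inflammatory chemokine, had 654 and 608 CPM in KO Th1, against 22.0 and 20.1 CPM in KO Th2 (log2 fold change 4.90 ± 0.20, adjusted p = 2.66e-11). WT levels of Ccl3 were 97.6 and 115 CPM in Th1, against 5.11 and 4.65 CPM in Th2 (4.44). Ccl4, its close relative, had 643 and 597 CPM in KO Th1, against 56.8 and 77.4 CPM in KO Th2 (3.21). For Ccl4, WT Th1 had 252 and 230.1 CPM, against 10.1 and 10.2 CPM in WT Th2 (4.56; interaction -1.35, adjusted p = 0.00227). Xcl1, the chemokine that attracts cross-presenting dendritic cells, had 66.3 and 56.2 CPM in KO Th1, against 0.263 and 0 CPM in KO Th2, a ratio of 423 with a counting interval of 144 to 2050.0. The cytokine Tnf had 228 and 189 CPM in KO Th1, against 9.10 and 8.52 CPM in KO Th2 (4.56 ± 0.16). WT cultures held Tnf at 71.5 and 64.6 CPM in Th1, against 23.5 and 23.1 CPM in Th2 (1.55), a larger difference in KO (interaction 3.02, adjusted p = 2.57e-08). Il12rb2, the inducible chain of the IL-12 receptor, had 821 and 789.6 CPM in KO Th1, against 572 and 438 CPM in KO Th2 (0.67). In WT, Il12rb2 had 1162 and 1088 CPM in Th1, against 310.2 and 340.3 CPM in Th2 (1.79; interaction -1.12, adjusted p = 2.2e-05).

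Of the Th2 cytokines, 5 of 11 were lower in KO Th1 and 2 higher (median -0.93), against 10 lower and 1 higher in WT Th1 (median -3.15). Il5, the eosinophil growth factor, had 0.464 and 0.403 CPM in KO Th1, against 13.5 and 8.41 CPM in KO Th2. WT levels of Il5 were 3.23 and 3.89 CPM in Th1, against 88.6 and 90.2 CPM in Th2. Levels were lower in both KO conditions than in the WT libraries of their condition, and the log2 fold change was -4.64 ± 0.41 in KO and -4.65 ± 0.25 in WT (interaction 0.01, adjusted p = 0.993). Il24, a cytokine of the IL-10 family, had 1.24 and 0.322 CPM in KO Th1, against 282 and 270.1 CPM in KO Th2 (-8.43 ± 0.24, adjusted p = 9.91e-13). For Il24, WT Th1 had 1.53 and 1.41 CPM, against 658 and 613 CPM in WT Th2 (-8.75). Il10, the regulatory cytokine that Th2 cells also secrete, had 59.8 and 64.6 CPM in KO Th1, against 342 and 488 CPM in KO Th2 (-2.74). WT cultures held Il10 at 98.7 and 79.7 CPM in Th1, against 314 and 274 CPM in Th2 (-1.72). The 2 members that were higher in KO Th1 were Csf2 and Il3, growth factors of myeloid and mast cells. Csf2 had 27.7 and 16.5 CPM in KO Th1, against 1.66 and 1.62 CPM in KO Th2 (3.74 ± 0.38, adjusted p = 4.67e-07). In WT, Csf2 had 9.34 and 10.1 CPM in Th1, against 4.84 and 4.96 CPM in Th2 (0.99). Il3 had 3.02 and 1.13 CPM in KO Th1 and 0 counts in KO Th2, at least 14.4-fold higher. WT levels of Il3 were 0.425 and 0.579 CPM in Th1, against 1.37 and 2.27 CPM in Th2. Without KO Th1 replicate 1 the log2 fold change of Il24 in KO was -9.71, and without KO Th1 replicate 2 it was -7.81.

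Th2 transcription factors were lower in KO Th1 in 9 of 15 cases and higher in 1 (median -0.95), against 10 lower and 3 higher in WT Th1 (median -1.42). Pparg, a nuclear receptor of Th2 and fat cells, had 0.851 and 1.61 CPM in KO Th1, against 77.8 and 51.8 CPM in KO Th2 (-5.72 ± 0.45, adjusted p = 9.21e-08). For Pparg, WT Th1 had 0.509 and 0.496 CPM, against 29.7 and 27.8 CPM in WT Th2 (-5.80; interaction 0.09). Maf, which activates Il4, had 50.6 and 65.5 CPM in KO Th1, against 604 and 449.9 CPM in KO Th2 (-3.18 ± 0.23). WT cultures held Maf at 91.1 and 81.1 CPM in Th1, against 267 and 193 CPM in Th2 (-1.42), a larger difference in KO (interaction -1.77, adjusted p = 0.000326). Epas1, the hypoxia-inducible factor HIF-2α, had 90.5 and 82.9 CPM in KO Th1, against 839 and 696 CPM in KO Th2 (-3.15). In WT, Epas1 had 12.7 and 10.8 CPM in Th1, against 177 and 136 CPM in Th2 (-3.73). The KO Th2 cultures thus held more Maf and Epas1 than any WT library, while their Il4 stayed below both WT Th2 libraries.

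Th2 receptors and surface genes were lower in KO Th1 in 18 of 22 cases and higher in 3 (median -1.46), against 15 lower and 3 higher in WT Th1 (median -1.12). Ecm1, a secreted protein that lets Th2 cells leave lymph nodes, had 285 and 267 CPM in KO Th1, against 15947 and 11979 CPM in KO Th2 (-5.66 ± 0.37, adjusted p = 1.81e-08). WT levels of Ecm1 were 406 and 369 CPM in Th1, against 2899 and 1992 CPM in Th2 (-2.66; interaction -3.00, adjusted p = 8.62e-05). Ecm1 was low in all Th1 libraries of both genotypes and highest in KO Th2. Ccr4, the chemokine receptor of Th2 cells, had 2.32 and 3.22 CPM in KO Th1, against 100.1 and 95.5 CPM in KO Th2 (-5.14 ± 0.18). For Ccr4, WT Th1 had 26.0 and 20.8 CPM, against 309.9 and 278 CPM in WT Th2 (-3.65; interaction -1.49, adjusted p = 9.46e-05). Here both KO levels were below the WT levels of the same condition, the Th1 level more so. Il17rb, a receptor chain for IL-25, had 0.310 and 0.564 CPM in KO Th1, against 12.3 and 22.1 CPM in KO Th2 (-5.26). WT cultures held Il17rb at 0.255 and 0.248 CPM in Th1, against 3.92 and 3.20 CPM in Th2 (-3.77). Il4ra, the IL-4 receptor chain, had 562 and 555 CPM in KO Th1, against 1866 and 2072 CPM in KO Th2 (-1.82). In WT, Il4ra had 827 and 778 CPM in Th1, against 1819 and 1727 CPM in Th2 (-1.14).

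**Figure D4:**
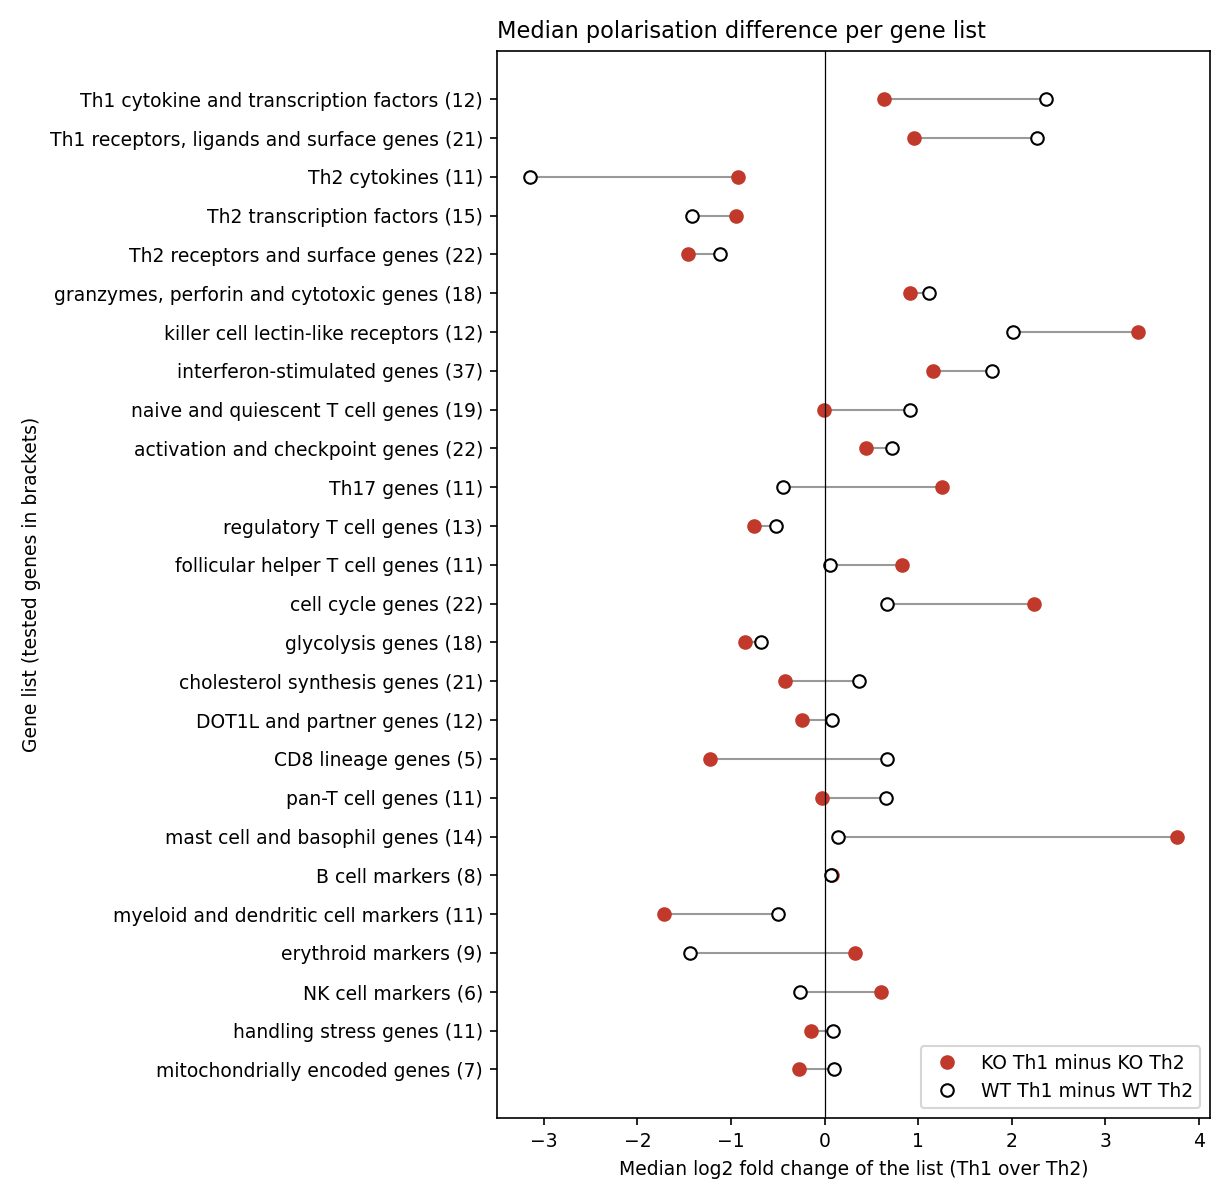
Median log2 fold change (Th1 over Th2, x axis) of 26 gene lists, with the number of tested genes in brackets; filled points are KO, open points WT, joined by a line. The Th1 factor, Th1 receptor and Th2 cytokine medians lay nearer 0 in KO, whereas the killer cell lectin-like receptor, cell cycle and mast cell medians lay further from 0, at 3.35, 2.24 and 3.77 in KO, against 2.01, 0.67 and 0.14 in WT.

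The cytotoxic genes were called in both directions in KO, with the share lower near the 31.8% of all genes. Of 18 tested genes, 9 were higher and 5 lower in KO Th1 (median 0.91), against 11 higher and 3 lower in WT Th1 (median 1.12). Gzma, a granzyme, had 2109.5 and 1196 CPM in KO Th1, against 20238 and 22258 CPM in KO Th2 (-3.68 ± 0.28, adjusted p = 9.41e-08). WT levels of Gzma were 151 and 122 CPM in Th1, against 530.0 and 491 CPM in Th2 (-1.90; interaction -1.78, adjusted p = 0.00132). Gzmb, the granzyme that activates caspases, had 11122 and 10030.0 CPM in KO Th1, against 16838 and 21625 CPM in KO Th2 (-0.86 ± 0.14, adjusted p = 6.81e-05), but was higher in WT Th1 with 4050.2 and 4316 CPM, against 1314 and 1699 CPM in WT Th2 (1.47; interaction -2.34, adjusted p = 2.64e-07). Both granzymes were therefore lower in KO Th1 than in KO Th2, and higher in each KO condition than in the WT libraries of that condition. Prf1, which encodes perforin, had 1613 and 1336 CPM in KO Th1, against 1310.1 and 1876 CPM in KO Th2 (adjusted p = 0.585). For Prf1, WT Th1 had 296 and 303 CPM, against 66.2 and 87.0 CPM in WT Th2 (1.97; interaction -2.08, adjusted p = 6.63e-06), so the difference called in WT was not called in KO, where the groups overlapped. Gzme, of the granzyme cluster beside Gzmb, had 154 and 90.3 CPM in KO Th1, against 5.34 and 6.80 CPM in KO Th2 (4.34 ± 0.35, adjusted p = 2.43e-07). WT cultures held Gzme at 9.93 and 11.6 CPM in Th1, against 2.65 and 5.89 CPM in Th2 (1.35). Crtam, a cell adhesion receptor of cytotoxic T cells, had 28.6 and 37.0 CPM in KO Th1, against 3.68 and 2.48 CPM in KO Th2 (3.39). In WT, Crtam had 23.2 and 29.9 CPM in Th1, against 5.57 and 8.17 CPM in Th2 (1.96). Reads that map to several genes were not counted, so the values of near-identical granzymes are uncertain. Summed over the list, KO Th1 held 20932 and 17002 CPM, against 42234 and 49773 CPM in KO Th2. The WT sums were 7276 and 7432.5 CPM in Th1, against 3865 and 4173 CPM in Th2. Gzma and Gzmb made up most of each KO sum, so its direction is theirs and not that of the list. The Cd8a and Cd8b1 transcripts described below were also higher in KO Th2, and their part in the granzyme difference was not tested.

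Killer cell lectin-like receptors, which bind class I molecules and stress ligands on target cells, were higher in KO Th1 in 8 of 12 cases and lower in 0 (median 3.35), against 8 higher and 2 lower in WT Th1 (median 2.01). Klrk1, which encodes the activating receptor NKG2D, had 255 and 214 CPM in KO Th1, against 7.35 and 10.7 CPM in KO Th2 (4.72 ± 0.21, adjusted p = 7.45e-11). WT levels of Klrk1 were 169 and 153 CPM in Th1, against 12.7 and 10.96 CPM in Th2 (3.77). Klrc1, which encodes NKG2A, had 266 and 188 CPM in KO Th1, against 16.5 and 12.8 CPM in KO Th2 (3.94). For Klrc1, WT Th1 had 114 and 108 CPM, against 7.30 and 11.3 CPM in WT Th2 (3.59). Klri2 had 50.4 and 31.0 CPM in KO Th1, against 1.31 and 0.971 CPM in KO Th2 (5.12 ± 0.42). WT cultures held Klri2 at 8.49 and 8.77 CPM in Th1, against 1.37 and 2.07 CPM in Th2 (2.33; interaction 2.79, adjusted p = 0.0035). Klra3, of the Ly49 family, showed the same order at lower levels, with 13.003 and 7.09 CPM in KO Th1, against 0.350 and 0.216 CPM in KO Th2 (5.07). In WT, Klra3 had 3.23 and 3.31 CPM in Th1, against 1.46 and 1.14 CPM in Th2 (1.32). No library of KO Th2 reached the level of a KO Th1 library for any of these 4 receptors. They were named by their KO values, so this separation follows from the choice.

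Interferon-stimulated genes kept their Th1 bias in KO, at a smaller median. Of 37 tested genes, 30 were higher and 4 lower in KO Th1 (median 1.16), against 33 higher and 1 lower in WT Th1 (median 1.79). The interaction was called for 8 toward a more positive difference in KO, near the 22.0% of all genes, and for 15 toward a more negative one. Oasl2, Ifit3, Ifit3b and Cxcl10 were named for large differences in KO. Their fitted differences exceeded those in WT, unlike most called interactions of the list, though for Ifit3b the interaction was not called. For Ifit3b and Cxcl10 the fitted value in KO rests on 0 counts in KO Th2. Oasl2, an oligoadenylate synthetase-like gene, had 20.5 and 20.3 CPM in KO Th1, against 0.525 and 1.62 CPM in KO Th2 (4.30 ± 0.33, adjusted p = 1.33e-08). WT levels of Oasl2 were 14.7 and 14.7 CPM in Th1, against 3.38 and 4.96 CPM in Th2 (1.83). Ifit3, which encodes an antiviral RNA-binding protein, had 7.59 and 9.10 CPM in KO Th1, against 0.175 and 0.755 CPM in KO Th2 (4.22 ± 0.51). For Ifit3, WT Th1 had 18.1 and 16.6 CPM, against 1.82 and 4.76 CPM in WT Th2 (2.42). Its copy Ifit3b had 1.39 and 2.34 CPM in KO Th1 and 0 counts in KO Th2, at least 12.8-fold higher. For Ifit3b, WT Th1 had 4.92 and 5.21 CPM, against 0.456 and 1.24 CPM in WT Th2 (2.59; interaction adjusted p = 0.0515). KO Th2 replicate 2 was above replicate 1 for Oasl2 and Ifit3: without it the log2 fold changes were 5.25 for Oasl2 and 5.49 for Ifit3, and without KO Th2 replicate 1 they were 3.65 and 3.45. Cxcl10, the interferon-induced ligand of CXCR3, had 21.8 and 22.8 CPM in KO Th1 and 0 counts in KO Th2, at least 154-fold higher. WT cultures held Cxcl10 at 6.54 and 7.69 CPM in Th1, against 1.00 and 1.86 CPM in Th2 (2.32).

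Of 19 genes of naive and quiescent T cells, 5 were higher and 7 lower in KO Th1 (median -0.01), near the 28.1% and 31.8% of all genes, against 17 higher and 1 lower in WT Th1 (median 0.91), with 13 interactions called toward a more negative difference. Ccr7, the chemokine receptor for lymph node entry, was higher in Th1, with 144 and 157 CPM in KO Th1, against 18.2 and 24.6 CPM in KO Th2 (2.82). In WT, Ccr7 had 947 and 967 CPM in Th1, against 215 and 275 CPM in Th2 (1.97). Igfbp4 had 160.4 and 121 CPM in KO Th1, against 14.4 and 15.1 CPM in KO Th2 (3.25). WT levels of Igfbp4 were 974 and 968 CPM in Th1, against 167 and 157 CPM in Th2 (2.58). Both were several times lower in KO than in WT in both conditions, while their log2 differences between conditions were no smaller in value than in WT. Klf2, the factor that maintains quiescence and lymph node recirculation, turned round, with 4.72 and 9.98 CPM in KO Th1, against 26.1 and 28.8 CPM in KO Th2 (-1.90 ± 0.29, adjusted p = 5.04e-05). For Klf2, WT Th1 had 99.3 and 88.7 CPM, against 31.3 and 41.2 CPM in WT Th2 (1.38; interaction -3.28, adjusted p = 7.67e-06). Without KO Th1 replicate 2 the log2 fold change of Klf2 in KO was -2.55.

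Activation and checkpoint genes moved both ways: 11 of 22 were higher and 9 lower in KO Th1 (median 0.44), against 13 higher and 7 lower in WT Th1 (median 0.72). Cd40lg, the helper ligand for B cells, had 16.3 and 13.8 CPM in KO Th1, against 0.700 and 0.647 CPM in KO Th2 (4.45 ± 0.22, adjusted p = 8.58e-11). WT cultures held Cd40lg at 46.3 and 42.3 CPM in Th1, against 24.7 and 25.4 CPM in Th2 (0.82; interaction 3.63, adjusted p = 5.04e-08). Nr4a3, an immediate-early nuclear receptor downstream of T cell receptor signals, had 71.2 and 68.8 CPM in KO Th1, against 3.41 and 4.42 CPM in KO Th2 (4.17). In WT, Nr4a3 had 112 and 122 CPM in Th1, against 14.9 and 18.5 CPM in Th2 (2.81). Its relative Nr4a2 had 73.3 and 59.7 CPM in KO Th1, against 6.65 and 5.39 CPM in KO Th2 (3.45). WT levels of Nr4a2 were 53.8 and 57.3 CPM in Th1, against 31.3 and 38.9 CPM in Th2 (0.67). For these 3 genes KO Th2 was the lowest of the 4 groups. The inhibitory receptor Lag3 had 506 and 538 CPM in KO Th1, against 902 and 985 CPM in KO Th2 (-0.85, adjusted p = 7.31e-06). For Lag3, WT Th1 had 634 and 614 CPM, against 249.9 and 239 CPM in WT Th2 (1.35), opposite directions in the 2 genotypes (interaction -2.20, adjusted p = 4.77e-08).

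Among the other T helper programs, Th17 genes were higher in KO Th1 in 6 of 11 cases and lower in 2 (median 1.25), against 1 higher and 5 lower in WT Th1 (median -0.44). Il23r, which encodes a chain of the IL-23 receptor, had 12.9 and 12.2 CPM in KO Th1, against 0.350 and 0.431 CPM in KO Th2 (4.98 ± 0.39, adjusted p = 1.71e-08). WT cultures held Il23r at 14.4 and 10.8 CPM in Th1, against 13.1 and 21.2 CPM in Th2 (interaction 5.42, adjusted p = 2.07e-07). Il21, the cytokine shared by Th17 and follicular helper cells, had 103 and 116 CPM in KO Th1, against 6.21 and 3.34 CPM in KO Th2 (4.48 ± 0.25). In WT, Il21 had 181 and 169 CPM in Th1, against 197 and 138 CPM in Th2 (interaction 4.42, adjusted p = 8.97e-08). For Il23r and Il21 the KO Th2 libraries were the ones that stood apart, below the other 3 groups. Il22, a cytokine acting on epithelia, had 5.50 and 2.34 CPM in KO Th1, against 0.0875 and 0 CPM in KO Th2, a ratio of 81.7 with a counting interval of 14.3 to 3260.0. WT levels of Il22 were 1.95 and 2.56 CPM in Th1, against 6.39 and 11.6 CPM in Th2 (-1.98).

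Regulatory T cell genes were lower in KO Th1 in 10 of 13 cases and higher in 1 (median -0.75), against 9 lower and 2 higher in WT Th1 (median -0.52). The call of the 1 higher gene, Ikzf2 (0.71, adjusted p = 0.0396), was lost in 7 of 16 alternatives, among them those without KO Th1 replicate 1 or KO Th2 replicate 2. Lrrc32, which encodes GARP, the anchor of latent TGF-β, had 0.929 and 2.98 CPM in KO Th1, against 228 and 270.2 CPM in KO Th2 (-7.00 ± 0.31, adjusted p = 2.27e-10). For Lrrc32, WT Th1 had 82.4 and 89.3 CPM, against 119 and 126 CPM in WT Th2 (-0.52; interaction -6.48, adjusted p = 2.46e-08). Its KO log2 fold change was -6.40 without KO Th1 replicate 1 and -8.06 without KO Th1 replicate 2. Itgae, the αE integrin chain CD103, had 2.32 and 4.03 CPM in KO Th1, against 56.8 and 76.6 CPM in KO Th2 (-4.39). WT cultures held Itgae at 8.66 and 11.003 CPM in Th1, against 45.3 and 41.7 CPM in Th2 (-2.14). Gpr83 had 0 and 0.725 CPM in KO Th1, against 3.68 and 3.24 CPM in KO Th2 (-3.25; -2.26 without KO Th1 replicate 1 and -8.24 without KO Th1 replicate 2). Foxp3, the factor that defines regulatory T cells, had 1.47 and 1.13 CPM in KO Th1, against 1.31 and 3.24 CPM in KO Th2 (adjusted p = 0.0714; log2 fold change -1.30, adjusted p = 0.00183, without KO Th2 replicate 1). In WT, Foxp3 had 24.9 and 24.5 CPM in Th1, against 11.5 and 15.2 CPM in Th2 (0.89). Lrrc32 and Itgae thus differed in KO while Foxp3 was low in all 4 KO libraries. Follicular helper genes were higher in KO Th1 in 5 of 11 cases and lower in 4 (median 0.83), against 3 and 4 in WT Th1 (median 0.06). The share lower in KO is near the 31.8% of all genes, and the share higher in WT near the 26.0%. Btla, an inhibitory receptor, had 22.8 and 26.9 CPM in KO Th1, against 2.01 and 1.29 CPM in KO Th2 (3.87 ± 0.21). WT levels of Btla were 175 and 211 CPM in Th1, against 205 and 209.6 CPM in Th2 (interaction 3.97, adjusted p = 7.9e-09). Slamf6, a receptor for cell contacts among lymphocytes, had 25.7 and 27.8 CPM in KO Th1, against 133 and 187 CPM in KO Th2 (-2.58). For Slamf6, WT Th1 had 76.3 and 84.9 CPM, against 24.5 and 24.3 CPM in WT Th2 (1.72; interaction -4.30, adjusted p = 1.64e-09). Ascl2, a basic helix-loop-helix factor, had 1 count over KO Th1 and 11 over KO Th2, and its call was lost without KO Th1 replicate 2 (adjusted p = 0.088).

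Cell cycle genes were higher in KO Th1 in 21 of 22 cases and lower in 0 (median 2.24), against 8 higher and 0 lower in WT Th1 (median 0.67), and 15 had a called interaction toward a larger difference in KO. Summed CPM of the list was 5465 and 5863 in KO Th1, against 1169 and 1906 in KO Th2, and 3787 and 4150.3 in WT Th1, against 2223 and 2902 in WT Th2. Mki67, the proliferation antigen, had 895 and 977 CPM in KO Th1, against 65.3 and 206 CPM in KO Th2 (2.79 ± 0.38, adjusted p = 2.22e-05). WT cultures held Mki67 at 669 and 739.6 CPM in Th1, against 342 and 491 CPM in Th2 (0.76, adjusted p = 0.0848). Top2a, the topoisomerase of dividing cells, had 1129.6 and 1148 CPM in KO Th1, against 89.3 and 249.8 CPM in KO Th2 (2.75). In WT, Top2a had 851 and 932 CPM in Th1, against 431 and 595 CPM in Th2. Cdc20, the activator of the anaphase-promoting complex, had 93.9 and 118 CPM in KO Th1, against 7.53 and 23.3 CPM in KO Th2 (2.82). WT levels of Cdc20 were 69.3 and 76.1 CPM in Th1, against 40.9 and 48.4 CPM in Th2. KO Th2 replicate 1 was the lowest library of the 8, well below replicate 2 for all 3 genes. The KO log2 fold changes of Mki67, Top2a and Cdc20 were 3.85, 3.68 and 3.82 without replicate 2 of KO Th2, and 2.19 for both Mki67 and Cdc20 without replicate 1.

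**Figure D5:**
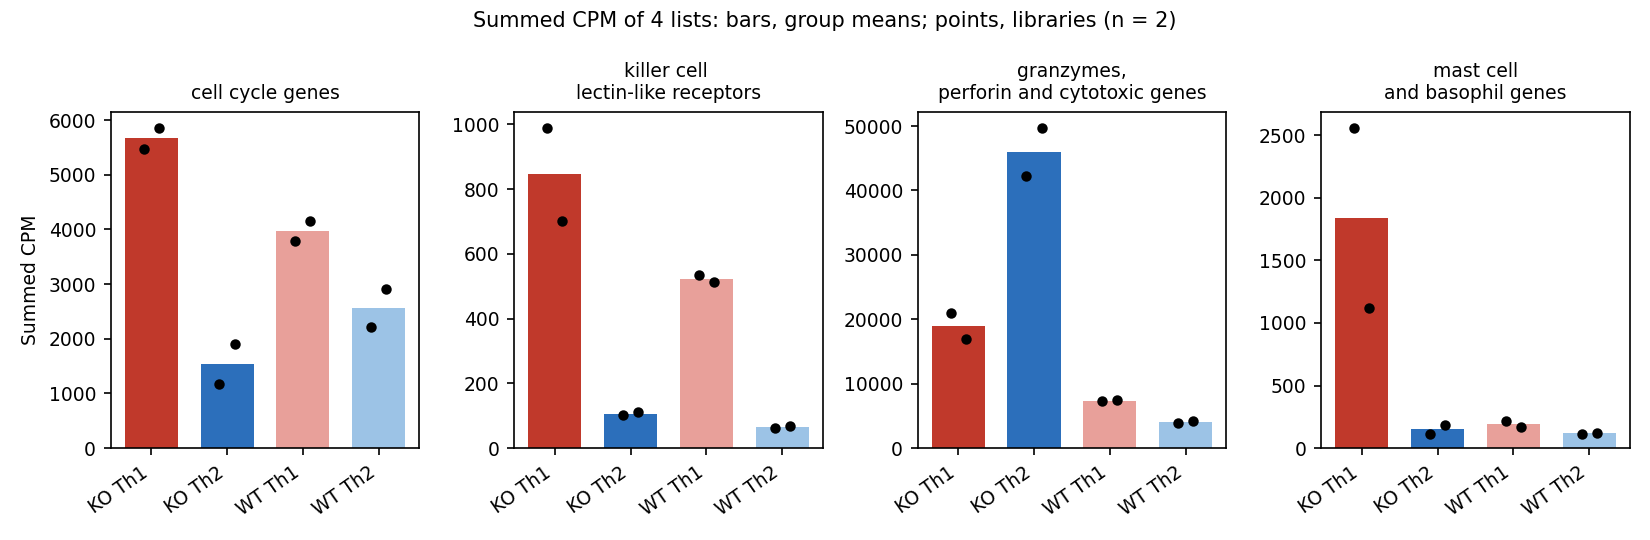
Summed CPM (y axes start at 0) of the cell cycle, killer cell lectin-like receptor, cytotoxic, and mast cell and basophil lists in KO Th1, KO Th2, WT Th1 and WT Th2; bars are group means and points the 2 libraries. The cytotoxic sum was 20932 and 17002 CPM in KO Th1, against 42234 and 49773 CPM in KO Th2, most of it Gzma and Gzmb. KO Th1 was above KO Th2 for the other 3 lists.

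Glycolysis genes were lower in Th1 in both genotypes: 15 of 18 were lower and 1 higher in KO Th1 (median -0.85), against 17 lower and 0 higher in WT Th1 (median -0.68). The 1 higher gene, the hexokinase Hk2 (0.45, adjusted p = 0.0404), lost its call in 11 of 16 alternatives, RLE scaling among them. Slc2a3, a glucose transporter, had 632 and 567 CPM in KO Th1, against 2783 and 1854 CPM in KO Th2 (-1.95 ± 0.15, adjusted p = 2.19e-08). For Slc2a3, WT Th1 had 1250.0 and 1272 CPM, against 3272 and 2827 CPM in WT Th2 (-1.27). Aldoc, an aldolase, had 93.0 and 81.6 CPM in KO Th1, against 258 and 320.0 CPM in KO Th2 (-1.73). WT cultures held Aldoc at 209 and 202 CPM in Th1, against 288 and 277 CPM in Th2 (-0.46). Gpi1, glucose-6-phosphate isomerase, had 593 and 611 CPM in KO Th1, against 1573 and 1433 CPM in KO Th2 (-1.32). In WT, Gpi1 had 888 and 896 CPM in Th1, against 1598 and 1585 CPM in Th2 (-0.83). Cholesterol synthesis genes, in contrast, turned round at the median: 13 of 21 were lower and 0 higher in KO Th1 (median -0.42), against 5 lower and 11 higher in WT Th1 (median 0.37), and 13 interactions were called, all toward a more negative difference in KO. Hmgcs1, an early enzyme of the pathway, had 353 and 314 CPM in KO Th1, against 498 and 526 CPM in KO Th2 (-0.62, adjusted p = 0.000129). WT levels of Hmgcs1 were 347 and 344 CPM in Th1, against 163 and 149 CPM in Th2 (1.14; interaction -1.76, adjusted p = 3.05e-07). Lss, lanosterol synthase, had 191 and 186 CPM in KO Th1, against 471 and 510.4 CPM in KO Th2 (-1.38). For Lss, WT Th1 had 134 and 132 CPM, against 218 and 206 CPM in WT Th2 (-0.67). Acat2 had 66.9 and 68.7 CPM in KO Th1, against 127 and 132 CPM in KO Th2 (-0.93). WT cultures held Acat2 at 46.6 and 42.6 CPM in Th1, against 51.5 and 50.4 CPM in Th2 (-0.19, adjusted p = 0.258). Hsd17b7 had 46.0 and 38.6 CPM in KO Th1, against 86.7 and 78.3 CPM in KO Th2 (-0.96). In WT, Hsd17b7 had 38.9 and 37.1 CPM in Th1, against 153 and 104 CPM in Th2 (-1.76, adjusted p = 8.71e-05). Of the 4 named genes, Hmgcs1 changed direction between the genotypes, while Lss and Hsd17b7 were lower in Th1 in both.

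Dot1l and genes of its partner complexes, among them the super elongation complex, differed in both directions. In WT Th1, 3 of 12 were higher, near the 26.0% of all genes, and 5 lower (median 0.08). In KO Th1, 4 were higher, near the 28.1% of all genes, and 7 lower (median -0.24). Without KO Th1 replicate 2 or without KO Th2 replicate 2, 2 were higher. Aff3 had 22.7 and 29.8 CPM in KO Th1, against 2.89 and 2.91 CPM in KO Th2 (3.17 ± 0.18, adjusted p = 4.9e-10). WT levels of Aff3 were 175 and 182 CPM in Th1, against 36.8 and 44.3 CPM in Th2 (2.14). Mllt3, whose product AF9 binds DOT1L, had 43.7 and 44.3 CPM in KO Th1, against 375 and 305 CPM in KO Th2 (-2.95 ± 0.13). For Mllt3, WT Th1 had 142 and 140.4 CPM, against 287 and 286 CPM in WT Th2 (-1.02; interaction -1.93, adjusted p = 3.45e-07). Aff4, a scaffold of the super elongation complex, had 128 and 114 CPM in KO Th1, against 464 and 391.5 CPM in KO Th2 (-1.82). WT cultures held Aff4 at 169 and 173 CPM in Th1, against 318 and 286 CPM in Th2 (-0.82). Mllt3 and Aff4 were therefore lower in Th1 in both genotypes, by more in KO.

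Genes averaging under 1 on the log2 CPM scale, or with overlapping KO libraries, were left out of the ranking by fold. Genes with provisional names or duplicated symbols were left out too. Of the rest, the 6 called genes with the lowest fitted fold changes in KO Th1 relative to KO Th2 were Th2-high in WT too. For the 4 of them with 0 counts in KO Th1, the fitted value depends on the prior count, and so does their rank. Pth, the parathyroid hormone gene, had 0 counts in KO Th1, against 73.9 and 16.2 CPM in KO Th2, at least 406-fold lower. In WT, Pth had 0.0849 and 0 CPM in Th1, against 92.1 and 109.7 CPM in Th2. Chil3, a chitinase-like protein best known from macrophages, had 0 counts in KO Th1, against 26.6 and 48.9 CPM in KO Th2, at least 309-fold lower; its call was lost in limma voom (adjusted p = 0.0986). Efna5, an ephrin ligand, had 0 counts in KO Th1, against 36.6 and 31.9 CPM in KO Th2, at least 291-fold lower. WT levels of Efna5 were 0.170 and 0.0827 CPM in Th1, against 72.8 and 58.3 CPM in Th2. Pdk4, which inhibits pyruvate dehydrogenase, had 0 counts in KO Th1, against 7.44 and 6.90 CPM in KO Th2, at least 60.8-fold lower. Mgl2, a C-type lectin, had 0.0774 and 0 CPM in KO Th1, against 5.51 and 21.9 CPM in KO Th2, a ratio of 326 (counting interval 58.0 to 12900.0) in favour of Th2, and Il24, given above, completed the set. The KO Th2 replicates differed several-fold for Pth and Mgl2.

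At the other end, besides Xcl1 and Cxcl10, stood Tmod2, Tpsg1, Serpinb9b and Sema3b. Tmod2, which caps actin filaments, had 11.5 and 13.4 CPM in KO Th1 and 0 counts in KO Th2, at least 86.0-fold higher, and 7.81 and 9.93 CPM in WT Th1 and 0 counts in WT Th2, at least 61.1-fold higher. Serpinb9b, of the granzyme inhibitor family, had 168 and 119 CPM in KO Th1, against 0.613 and 0.539 CPM in KO Th2 (7.93 ± 0.33, adjusted p = 2.39e-11). For Serpinb9b, WT Th1 had 42.8 and 36.6 CPM, against 1.09 and 1.65 CPM in WT Th2 (4.86). Sema3b, a secreted semaphorin, had 2.71 and 2.74 CPM in KO Th1 and 0 counts in KO Th2, at least 18.8-fold higher. WT cultures held Sema3b at 41.9 and 28.2 CPM in Th1, against 0.0912 and 0.103 CPM in Th2. Tpsg1, a tryptase, had 20.05 and 9.501 CPM in KO Th1, against 0.0875 and 0 CPM in KO Th2, a ratio of 308 (counting interval 54.9 to 12200.0). In WT, Tpsg1 had 0.849 and 0.745 CPM in Th1, against 0.274 and 0.413 CPM in Th2, where it was not called. Of these 6, the WT contrast called all but Tpsg1.

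Among the largest interactions were genes called in 1 genotype, or in both with opposite signs. Ly6g, a surface protein best known from neutrophils, had 225 and 288 CPM in KO Th1, against 225 and 328 CPM in KO Th2 (adjusted p = 0.748). WT levels of Ly6g were 221 and 249.7 CPM in Th1, against 8.67 and 5.48 CPM in Th2 (5.04; interaction -5.15, adjusted p = 7.97e-07). KO Th2 was at the level of both Th1 groups. Mmp9, a matrix metalloproteinase, had 28.02 and 27.9 CPM in KO Th1, against 144 and 98.6 CPM in KO Th2 (-2.12 ± 0.28). For Mmp9, WT Th1 had 22.3 and 17.7 CPM, against 2.92 and 1.24 CPM in WT Th2 (3.23; interaction -5.35, adjusted p = 1.55e-06). Peg10, a paternally expressed gene derived from a retrotransposon, had 3.72 and 1.29 CPM in KO Th1, against 181 and 147 CPM in KO Th2 (-6.02 ± 0.51; -7.00 without KO Th1 replicate 1). WT cultures held Peg10 at 13.9 and 3.39 CPM in Th1, against 9.40 and 9.10 CPM in Th2. Alox15, a lipoxygenase induced by IL-4, was Th2-high in WT, with 0.170 and 0.0827 CPM in WT Th1, against 5.20 and 10.9 CPM in WT Th2, and had 0.0774 and 0.644 CPM in KO Th1, against 0.0875 and 0.108 CPM in KO Th2, 9 and 2 counts over the groups. Fcgr4, an Fc receptor, had 0.851 and 0.725 CPM in KO Th1, against 1.23 and 1.51 CPM in KO Th2, and 0.255 and 0.579 CPM in WT Th1 and 0 counts in WT Th2.

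In all, 1100 genes were called in opposite directions in KO and WT. Each of them also had a called interaction. With opposite signs the interaction exceeds either difference, so these calls largely follow from the choice and are not further support. Nrgn, a calmodulin-binding protein, had 32.8 and 30.8 CPM in KO Th1, against 2.36 and 4.64 CPM in KO Th2 (3.21 ± 0.28, adjusted p = 8.55e-08). In WT, Nrgn had 2.12 and 2.23 CPM in Th1, against 14.5 and 18.8 CPM in Th2 (-2.92; interaction 6.14, adjusted p = 2.54e-08). Gcnt4, a glycosyltransferase, had 3.56 and 2.25 CPM in KO Th1, against 0.525 and 0.431 CPM in KO Th2 (2.57 ± 0.46). WT levels of Gcnt4 were 0.170 and 0 CPM in Th1, against 3.29 and 3.20 CPM in Th2. Nrgn and Gcnt4 were Th1-high in KO and Th2-high in WT with no overlap of libraries, and both were named for their opposite signs. Tspan33 had 1.24 and 1.05 CPM in KO Th1, against 0.0875 and 0.216 CPM in KO Th2, a call lost without KO Th1 replicate 1 (adjusted p = 0.063) and without KO Th2 replicate 1 (adjusted p = 0.128). Adam22 had 27 counts over KO Th1, against 2 over KO Th2, and Mmrn1 had 22 over KO Th1, against 2 over KO Th2, with 0 counts of either gene in WT Th1. The call of Mmrn1 in KO was lost without KO Th2 replicate 1 (adjusted p = 0.116), and at these counts the ratios had counting intervals of 2.77 to 95.7 for Adam22 and 2.21 to 78.8 for Mmrn1.

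Transcripts of other cell types were measured beside these results. Genes of mast cells and basophils were higher in KO Th1 in 13 of 14 cases and lower in 0 (median 3.77). In WT Th1, 4 were higher, near the 26.0% of all genes, and 2 lower (median 0.14). Their summed CPM was 2561 and 1122 in KO Th1, against 116 and 185 in KO Th2, and 218 and 169.8 in WT Th1, against 115 and 122 in WT Th2. KO Th1 replicate 1 held the most, and both KO Th1 libraries exceeded the other 6. Cpa3, a mast cell carboxypeptidase and the most abundant member in KO Th1, had 1112 and 438 CPM there, against 36.1 and 72.4 CPM in KO Th2. Fcer1a, the IgE-binding chain of the high-affinity receptor, had 239 and 97.1 CPM in KO Th1, against 3.06 and 2.48 CPM in KO Th2 (5.90 ± 0.46, adjusted p = 1.23e-07; 5.09 without KO Th1 replicate 1). For Fcer1a, WT Th1 had 14.1 and 8.11 CPM, against 2.83 and 2.38 CPM in WT Th2 (2.08). Ms4a2, its beta chain, had 48.0 and 18.9 CPM in KO Th1, against 0.263 and 1.08 CPM in KO Th2, and Mcpt2, a mast cell protease, had 53.0 and 23.0 CPM in KO Th1, against 0.0875 and 0.971 CPM in KO Th2. Mcpt1, a protease of mucosal mast cells, had 115 and 52.7 CPM in KO Th1, against 5.95 and 7.12 CPM in KO Th2 (3.69 ± 0.37; 3.0 without KO Th1 replicate 1). WT cultures held Mcpt1 at 2.04 and 1.74 CPM in Th1, against 17.9 and 17.2 CPM in Th2 (-3.21). Kit, the stem cell factor receptor, had 146 and 85.8 CPM in KO Th1, against 4.38 and 6.69 CPM in KO Th2 (4.41). In WT, Kit had 39.0 and 32.4 CPM in Th1, against 3.74 and 5.48 CPM in Th2 (2.96). Tpsg1, Il3 and Csf2 moved in the same direction as this list in KO, and the part of such cells in their difference was not tested.

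T cell identity genes were expressed in all 4 KO libraries. Pan-T cell genes were higher in KO Th1 in 3 of 11 cases, near the 28.1% of all genes, and lower in 5 (median -0.03). In WT Th1, 9 were higher and 0 lower (median 0.66). Their summed CPM was 4613 and 4595 in KO Th1, against 4936 and 5831 in KO Th2. Cd4 itself had 212 and 199 CPM in KO Th1, against 175 and 157 CPM in KO Th2 (0.31, adjusted p = 0.0293). WT levels of Cd4 were 1049 and 1007 CPM in Th1, against 584 and 543 CPM in Th2. All 4 KO libraries lay well below the 4 WT libraries for Cd4, and its KO call was lost with any KO library but KO Th2 replicate 1 left out (adjusted p = 0.174, 0.065 and 0.153) and with either WT Th1 library left out (0.0519 and 0.0517). Cd5, an inhibitor of T cell receptor signalling, had 33.0 and 36.8 CPM in KO Th1, against 12.4 and 18.3 CPM in KO Th2 (1.19). For Cd5, WT Th1 had 452 and 492 CPM, against 297 and 298 CPM in WT Th2 (0.66). Cd6, its relative, had 67.2 and 98.6 CPM in KO Th1, against 25.8 and 28.2 CPM in KO Th2 (1.62), and Zap70, the receptor-proximal kinase, had 237 and 237 CPM in KO Th1, against 498 and 482 CPM in KO Th2 (-1.05). The list of CD8 lineage genes held 5 genes, and Cd4, the CD4 lineage gene, was among them. Of the 5, 1 was higher and 3 were lower in KO Th1, against 3 higher and 0 lower in WT Th1. The 1 higher in KO was Cd4, whose call was lost as given above, so no other gene of this list was called higher in KO Th1. Cd4 was also 1 of the 3 higher in WT Th1. Cd8a had 17.9 and 12.8 CPM in KO Th1, against 100.3 and 231 CPM in KO Th2 (-3.43 ± 0.34; -2.70 without KO Th2 replicate 2). WT cultures held Cd8a at 8.41 and 12.2 CPM in Th1, against 5.20 and 6.93 CPM in Th2 (interaction -4.20, adjusted p = 2.55e-05). Cd8b1 had 9.75 and 9.26 CPM in KO Th1, against 29.3 and 36.1 CPM in KO Th2 (-1.78). In WT, Cd8b1 had 13.5 and 13.7 CPM in Th1, against 7.85 and 9.30 CPM in Th2 (0.67). KO Th2 replicate 2 held the most Cd8a of the 8 libraries, after a sort for CD4+ cells.

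Myeloid and dendritic cell markers were lower in KO Th1 in 3 of 11 cases and higher in 0 (summed CPM 73.3 and 57.9 in KO Th1, against 265 and 301 in KO Th2, and 28.5 and 27.2 in WT Th1, against 61.9 and 23.3 in WT Th2). The share lower is near the 31.8% of all genes; with DESeq2 5 were lower, and without KO Th2 replicate 2 there was 1 higher. The 3 were Fcgr3 (15.3 and 7.01 CPM in KO Th1, against 165 and 156 CPM in KO Th2; -3.84, and -4.53 without KO Th1 replicate 1), Itgax (19.04 and 12.3 CPM in KO Th1, against 59.6 and 81.0 CPM in KO Th2; -2.16) and Cd68 (8.28 and 5.96 CPM in KO Th1, against 21.8 and 25.5 CPM in KO Th2; -1.72). Siglech, a marker of plasmacytoid dendritic cells, was at 0 counts in all 8 libraries, and Lyz2, Csf1r and Cd14 each stayed under 3 CPM in all 8. B cell markers summed to 25.3 and 5.48 CPM in KO Th1, against 24.2 and 18.01 CPM in KO Th2, and 1 of 8 was called, Cd79b, with 3.33 and 2.50 CPM in KO Th1, against 11.03 and 10.5 CPM in KO Th2 (-1.88). NK cell markers were higher in KO Th1 in 2 of 6 cases, near the 28.1% of all genes, and lower in 1. The lower 1 was Eomes, described with the Th1 factors. The list summed to 35.9 and 27.8 CPM in KO Th1, against 54.2 and 82.3 CPM in KO Th2. Ncr1, the marker NKp46, had 3.41 and 1.13 CPM in KO Th1, against 0.350 and 0.324 CPM in KO Th2 (2.71, and 1.68 without KO Th1 replicate 1). Klra8 had 1.86 and 0.725 CPM in KO Th1, against 0.263 and 0.216 CPM in KO Th2 (2.37). The Klra8 call was lost without KO Th1 replicate 1 (log2 fold change 1.52), KO Th2 replicate 1 (2.53) or KO Th2 replicate 2 (2.26). Of 9 erythroid markers, Hbb-bt was called, with 7.51 and 6.04 CPM in KO Th1, against 0.175 and 0.324 CPM in KO Th2, a call lost in limma voom (adjusted p = 0.0926). Handling stress genes were higher in KO Th1 in 1 of 11 cases and lower in 2, below the 28.1% and 31.8% of all genes. Jund had 422 and 485 CPM in KO Th1, against 891 and 1133 CPM in KO Th2 (-1.16). Ier2 had 126 and 119 CPM in KO Th1, against 127 and 231 CPM in KO Th2. Atf3 had 34.4 and 26.4 CPM in KO Th1, against 21.3 and 12.4 CPM in KO Th2. The Ier2 call was lost without KO Th1 replicate 1, KO Th1 replicate 2 or KO Th2 replicate 2 (adjusted p = 0.0522, 0.0845 and 0.776), and that of Atf3 without KO Th1 replicate 1 or KO Th2 replicate 2 (0.18 and 0.192). Mitochondrially encoded genes were lower in KO Th1 in 4 of 7 cases (median -0.27), among them mt-Nd6 (47.4 and 34.6 CPM in KO Th1, against 99.1 and 71.6 CPM in KO Th2), mt-Co1 (4813 and 3894 CPM in KO Th1, against 6656 and 6090.3 CPM in KO Th2) and mt-Nd4 (-0.36; adjusted p = 0.068 without KO Th1 replicate 2). Whether any of these transcripts from other cells or of RNA quality contribute to the polarisation differences above was not tested.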

How the data were processed

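RNA was sequenced from 20 libraries in 10 groups of 2, and KO Th1 and KO Th2 were compared. The deposited counts are whole-number read counts per gene, made with featureCounts 1.5.3 on Ensembl release 84 with strand setting 2, per the file headers and the submitters' processing notes, which also name GRCm38, edgeR and limma. No source used here names the aligner. Reads with several alignments were not assigned, and they held 31.3% to 32.7% of the alignments in the 4 KO culture libraries. Genes with near-identical copies (granzymes, Mcpt proteases, globins, Ifit3b) are therefore uncertain. The table of protein-coding genes was used. A table of all gene classes served as an alternative, and 20 further per-sample columns were not used.

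Counts were fitted with edgeR 4.0.16 in R 4.3.3 (filterByExpr, TMM scaling, robust quasi-likelihood test, Benjamini-Hochberg adjustment over 13072 genes), with 1 mean per group over all 20 libraries, a residual of 10 degrees of freedom and a biological coefficient of variation of 0.0963. Every adjusted p is from this edgeR test unless another tool is named, and a gene was called at an adjusted p under 0.05. The interaction is the KO difference minus the WT difference. CPM values use TMM library sizes. A fold against a group with 0 counts is a lower bound against 3 counts over the group, and with 1 to 3 counts a ratio with an exact counting interval is given. Intervals and floors cover counting error only.

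Genes, lists and tests were chosen with earlier results of these data known. Named genes were Dot1l and the 5 lineage genes (Ifng, Tbx21, Il4, Il13 and Gata3), the 6 highest and 6 lowest called in KO, up to 3 called genes per list, the 5 highest and 5 lowest interactions and up to 6 with opposite signs (97 genes). The highest and lowest were taken at an average log2 CPM of 1 or more. Genes with provisional names (such as Gm and digits, or Rik) or duplicated symbols were left out of the highest, the lowest and those with opposite signs. A further 17, and Cpa3, Ikzf2 and Hk2, were named after their values were seen. Some genes are not reported here. Medians, sums and counts describe the lists. Alternatives were RLE scaling, no low-count filter, DESeq2 1.42.0, limma voom 3.58.1, only the contrast's libraries, all gene classes, replicate blocks, SGC0649 cultures as WT and leaving out each library. Promoter sequences are from RefSeq.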

Additional observations from a re-analysis of the deposited data

Results flagged for a closer look

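The polarisation difference itself differed between KO and WT for 6045 genes, by the interaction test at an adjusted p under 0.05. The values that follow are the KO log2 difference (Th1 over Th2) minus the WT one, for the named genes in which this test made a call. The difference was more positive in KO for Mcpt2 7.35, Mcpt1 6.89, Nrgn 6.14, Atf3 5.50, Il23r 5.42, Il21 4.42, Ms4a2 4.40, Btla 3.97, Fcer1a 3.82, Klra3 3.75, Cd40lg 3.63 and Serpinb9b 3.07. Smaller positive values were Tnf 3.02, Gzme 2.99, Nr4a2 2.79, Klri2 2.79, Csf2 2.76, Ncr1 2.76, Oasl2 2.48, Il4 2.35, Cdc20 2.11, Mki67 2.03, Top2a 1.96 and Ifit3 1.80. Then followed Kit 1.45, Crtam 1.43, Nr4a3 1.36, Aff3 1.03, Klrk1 0.95, Ccr7 0.86, Cd6 0.80, Igfbp4 0.67 and Cd5 0.53. It was more negative in KO for Lrrc32 -6.48, Peg10 -5.92, Mmp9 -5.35, Ly6g -5.15, Slamf6 -4.30, Cd8a -4.20, Eomes -3.34, Klf2 -3.28, Ecm1 -3.00, Fcgr3 -2.69, Gpr83 -2.45 and Cd8b1 -2.45. Closer to 0 were Gzmb -2.34, Itgae -2.25, Hopx -2.21, Lag3 -2.20, Prf1 -2.08, Mllt3 -1.93, Gzma -1.78, Maf -1.77, Hmgcs1 -1.76, Itgax -1.66, Foxp3 -1.64 and Tbx21 -1.61. Next came Ccr4 -1.49, Ccl4 -1.35, Aldoc -1.27, Jund -1.27, mt-Nd6 -1.16, Il12rb2 -1.12, Runx3 -1.01, Gata3 -1.01, Il10 -1.01, Aff4 -1.0, Zap70 -0.94 and Acat2 -0.74. The smallest were Lss -0.71, Slc2a3 -0.68, Il4ra -0.67, Cd4 -0.56, mt-Nd4 -0.49 and Gpi1 -0.49. A group with 3 counts or fewer enters the difference of Il3 9.33, Cxcl10 8.60, Adam22 8.04, Il22 8.02, Mmrn1 7.95, Gcnt4 7.66, Alox15 7.63, Tspan33 6.90, Tpsg1 6.75 and Fcgr4 -6.0, so these fitted values depend on the prior count and are not bounds.

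With 1 library left out, the interaction call was lost at least once for mt-Nd6 (highest adjusted p 0.0615), Gpi1 (highest adjusted p 0.0626), Fcgr3 (highest adjusted p 0.0682), Ncr1 (highest adjusted p 0.0791), Crtam (highest adjusted p 0.0845), Klrk1 (highest adjusted p 0.089), Slc2a3 (highest adjusted p 0.0952), Itgax (highest adjusted p 0.105), Foxp3 (highest adjusted p 0.117), Kit (highest adjusted p 0.145), Igfbp4 (highest adjusted p 0.16), Cd5 (highest adjusted p 0.242), Alox15 (highest adjusted p 0.254) and Ifit3 (highest adjusted p 0.305).

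Taken as a fold, the interaction moved by over 1.5 times with 1 library left out for the genes that follow, given as log2 differences. Without KO Th1 replicate 1 the values were Alox15 8.43, Il3 8.42, Il22 7.24, Mcpt2 6.59, Mcpt1 6.20, Tpsg1 6.09, Ms4a2 3.55, Fcer1a 3.0, Ncr1 1.73, Gpr83 -1.47, Fcgr3 -3.39, Lrrc32 -5.89 and Peg10 -6.91. Without KO Th1 replicate 2 the values were Alox15 5.55, Klf2 -3.94, Gpr83 -7.46 and Lrrc32 -7.56. Without KO Th2 replicate 1 the values were Adam22 11.26, Il22 10.38, Tpsg1 9.11, Mmrn1 6.89, Mcpt2 6.38, Ms4a2 3.65, Oasl2 1.82, Cdc20 1.48, Mki67 1.42 and Ifit3 1.02. Without KO Th2 replicate 2 the values were Mmrn1 11.21, Mcpt2 9.69, Tspan33 7.57, Il22 7.30, Adam22 7.27, Tpsg1 6.03, Ms4a2 5.64, Oasl2 3.43, Cdc20 3.11, Mki67 3.09, Ifit3 3.07, Top2a 2.88, Foxp3 -0.90 and Cd8a -3.47. Without WT Th1 replicate 1 the values were Gcnt4 10.68 and Peg10 -4.60. Without WT Th1 replicate 2 the values were Tspan33 7.76, Gcnt4 6.70, Fcgr4 -5.32 and Peg10 -6.64. Without WT Th2 replicate 1 the values were Mcpt2 6.66 and Mmp9 -6.15. Without WT Th2 replicate 2 the values were Adam22 7.39, Mmrn1 7.08, Alox15 6.99, Tspan33 6.22, Gzme 2.30 and Ifit3 0.96.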

How the results depend on the processing

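The number of genes called between KO Th1 and KO Th2 (7821, or 8280 at an unadjusted p under 0.05) ranged over 6726 to 7796 with 1 library left out and 6866 to 8648 under the other alternatives. The interaction count (6045) ranged over 5012 to 5593 and 5677 to 6763, the count of genes called in the same direction in both genotypes (3508) over 2773 to 3549 and 3278 to 3794, and that in opposite directions (1100) over 775 to 1076 and 970 to 1256. The WT count (6973) ranged over 5567 to 7189 and 6532 to 7769. The share higher in KO Th1 among called genes, 46.9%, stayed within 44.5% to 49.7%. With no fold minimum, 2595 genes from SGC0649 cultures were called the same way in KO, against 1273 with it, because more genes enter the list. The Th1-high median in KO ranged over 0.57 to 0.73 and the Th2-high median in KO over -1.03 to -0.80 with 1 library left out. The Th2-high median in WT was -1.86 with only the contrast's libraries fitted and -1.92 with genes of all classes, and the cause was not tested. The Cd5 interaction reversed to -0.02 (adjusted p = 0.962) with SGC0649 cultures as WT, and the cause was not tested.

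Small list counts moved by over 1.5 times in some of the 16 alternatives. NK cell markers had 1 higher in 5 and 2 lower in 5, B cell markers up to 2 higher and 2 lower, and erythroid markers 0 higher in 1 and 1 lower in 2. Handling stress genes had 0 higher in 3 and 1 to 4 lower in 5, and mitochondrially encoded genes 2 lower in 2. Among named genes, 11 lost the KO call under at least 1 alternative and 23 the interaction call, while 1 and 10 gained one. With SGC0649 cultures as WT, the interaction call was lost for Cd6, Ccr7, Fcgr4 and Mmrn1, among others (adjusted p = 0.16, 0.0747, 0.147 and 0.126). With only the contrast's libraries, it was lost for Mki67, Top2a, Ms4a2 and Fcer1a, among others (adjusted p = 0.0673, 0.0557, 0.0592 and 0.0501). The sample titles carry replicate numbers 1 and 2 through all groups of a genotype without saying what they stand for. The replicate differences of KO Th1 and KO Th2 had a correlation of -6.16e-05 over genes. The main fit did not pair these libraries, though that value cannot exclude a shared source. Other pairs of groups reached higher values: 0.177 for WT Th1 and WT Th2, 0.160 for KO Th1 and WT Th1, 0.261 for KO Th2 and WT Th2, and -0.0229 to 0.422 over the 15 pairs of the 6 culture groups used, 9 of them over 0.1. With a replicate block over all groups, 8013 genes were called in KO and 6314 in the interaction. With the replicate block within genotype, the counts were 8111 and 6414. With 2 libraries per group and no statement of separate animals, the p-values do not measure variation between mice.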
